A study of Mus musculus with 4 samples.

Results

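The probes described here are 125 short DNA molecules that share a p53 backbone. They differ in which dipyrimidines they carry on the listed strand and, with the number of dipyrimidines, by a few filler bases. They were chosen by name, as the probes in which each of positions 6, 12 and 18 holds TT, TC, CT, CC or N, where N stands for no dipyrimidine. They form the complete set of 125 combinations, out of 6126 probe names and 5480 distinct sequences on the array. Each was printed as 10 replicate spots on each of 4 arrays, and the value of a probe is the median intensity of its unflagged spots, in fluorescence units of the Alexa 488 label.

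The study treated such arrays with UV light or left them untreated and then bound an antibody against a UV photoproduct. There was 1 array for each of 2 antibodies and each condition: anti-CPD on a non-UV and on a UV array, diluted 1 in 400, and anti-6-4PP on a non-UV and on a UV array, diluted 1 in 80. The mouse named in the labels is the source of the antibody. The measured items are synthetic DNA, and no cells or animals were measured. The condition field of the labels was used, since the titles of both 6-4PP arrays state the opposite condition. With 1 array per group, no comparison between arrays has a replicate check and no p-value is given. The spread between spots is technical, and precision is limited by how few arrays there were.

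UV light links neighbouring pyrimidines on a DNA strand. A cyclobutane pyrimidine dimer (CPD) joins them through a cyclobutane ring, and a 6-4 photoproduct (6-4PP) joins them through a bond that bends the helix more strongly. In textbook accounts CPD form most readily at TT, and 6-4PP form mainly at TC and TT. p53 is a tumour suppressor transcription factor that is activated after DNA damage and binds a site made of repeated half-sites with a CATG-like core. The arrays described here were bound by antibodies, so the values report antibody signal on the p53 backbone and not p53 binding.

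The sequences below show how the set is built, 5′ to 3′ on the listed strand, with the dipyrimidine in capitals, or with the single pyrimidine that stands in its place. A probe is written by its content at positions 6, 12 and 18 in that order, so that TT/N/N carries TT at position 6 alone.
probe N/N/N: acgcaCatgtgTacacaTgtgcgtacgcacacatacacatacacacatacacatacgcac
probe TT/N/N: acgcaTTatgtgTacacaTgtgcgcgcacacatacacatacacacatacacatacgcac
probe N/TT/N: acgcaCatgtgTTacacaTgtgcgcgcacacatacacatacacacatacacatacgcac
probe N/N/TT: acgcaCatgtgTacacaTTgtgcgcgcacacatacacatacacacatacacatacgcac
probe TT/TT/TT: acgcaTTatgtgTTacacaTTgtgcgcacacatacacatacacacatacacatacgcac
probe TC/TC/TC: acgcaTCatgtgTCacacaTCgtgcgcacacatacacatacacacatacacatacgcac
probe TC/N/TC: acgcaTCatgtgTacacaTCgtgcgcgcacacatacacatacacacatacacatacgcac
probe CC/CC/N: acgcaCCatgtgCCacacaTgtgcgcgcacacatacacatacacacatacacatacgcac

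In the backbone without a dipyrimidine, purines and pyrimidines alternate. All 125 probes held exactly the dipyrimidines of their name and none on the opposite strand. The motif CATG, which reads the same on both strands, started at positions 6 and 16 of N/N/N. It occurred at least once in 85 of the 125 probes, and in 12.3% of all array sequences. Each dipyrimidine took the place of a single C at position 6 or a single T at positions 12 and 18 and so added 1 base. The 3′ filler was trimmed to compensate, which left 60 bases with 0 or 2 dipyrimidines and 59 bases with 1 or 3. A comparison of a dipyrimidine with N therefore also changes the length by 1 base. Going from 0 to 1 or from 2 to 3 dipyrimidines also removes 2 filler bases 3′ of position 18, whereas going from 1 to 2 removes none. A comparison of 2 dipyrimidine types at 1 position keeps every other base and the length. The bases next to the dipyrimidine differ between positions: A before and A after at position 6, G before and A after at position 12, and A before and G after at position 18.

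After UV, the spots of a probe had a median SD of log2 intensity of 0.47 with anti-CPD and 0.30 with anti-6-4PP, and without UV it was 0.20 and 0.16. Between probes the SD was 0.71 and 0.90 after UV, and 0.18 and 0.16 without it. Medians of the first 5 and the last 5 spots correlated across the 125 probes with a Pearson r of 0.82 for CPD UV and 0.98 for 6-4PP UV. Without UV the values were 0.65 and 0.72. Those values describe probes of 1 array that share a backbone. With anti-6-4PP, flags removed 27 of 1250 member spots without UV and 8 after UV, and with anti-CPD they removed 0. Intensity ended at 65535, which 46 member spots and the medians of 4 members reached on the 6-4PP UV array. These medians are lower bounds. Means of differences that include them are affected too, in a direction that depends on which probe of a pair is at the ceiling.

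All 125 probes were brighter on the UV array than on the non-UV array of the same antibody. With anti-CPD the non-UV medians lay between 24.5 and 42.5 and the UV medians between 1747 and 18210.5. The lowest UV spot of any member, at 567, was above the highest non-UV spot, at 86. With anti-6-4PP the non-UV medians ran from 34 to 52 and the UV medians from 5466.5 to 65535, and the lowest UV spot, at 2579, was above the highest non-UV spot, at 88. The median log2 difference was 7.60 for CPD, with a range of 6.16 to 8.87, and 8.66 for 6-4PP, with a range of 7.07 to 10.70. The sources used here do not give scanner settings, and these differences include any difference in gain between scans.

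A probe was called where its intensity was at least 2 times the median of the 160 array sequences without a dipyrimidine. On the CPD UV array 75 of the 125 probes were called (60.0%), against 44.9% of all 5480 sequences. On the 6-4PP UV array 100 were called (80.0%), against a background of 73.7%. Neither non-UV array gave a called member, against a background of 1.00% for CPD and 0.0547% for 6-4PP. The called members followed their dipyrimidine content. Of the 61 probes with at least 1 TT, 60 were called with anti-CPD and 58 with anti-6-4PP. Of the 61 with at least 1 TC, 37 were called with anti-CPD and 59 with anti-6-4PP. These groups overlap, since a probe can carry both TT and TC. The TC counts therefore include probes that also carry TT, and the share for TC without TT was not computed. Among the 27 probes with neither TT nor TC, 2 were called with anti-CPD and 7 with anti-6-4PP.

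The probe with no dipyrimidine gave the starting level. After UV, N/N/N read 2103 ± 1133 with anti-CPD and 5467 ± 1106 with anti-6-4PP (median and SD of 10 spots). Without UV it read 28 and 38.5. The signal was thus also higher after UV on a probe with no dipyrimidine, and the source of that signal was not tested. The same sequence was printed under 3 further names, whose CPD UV medians were 2766, 3247 and 3713 and whose 6-4PP UV medians were 4958, 6487 and 7698. The copy among these 125 probes was thus the dimmest of the 4 with anti-CPD. The local median intensity around its spots was 2608.25 on the CPD UV array, where the spots of the 12 probes with 1 dipyrimidine lay in surroundings of 4547.25. In the deposited spatially adjusted intensity the 4 copies had 2969.1, 3232, 3268.4 and 3509.1 on that array, with N/N/N of this set at 3268.4. CPD gains measured from this 1 probe are given with their adjusted values. The part of the surroundings in these gains was not tested further.

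A single TT raised the CPD signal at each of the 3 positions. TT/N/N had 10098 ± 1622, with spots from 5603 to 10888, and N/TT/N had 7792 ± 3102, with spots from 4002 to 14254. N/N/TT had 8246 ± 1685, with spots from 5175 to 10403. The spots of TT/N/N and N/N/TT lay wholly above those of N/N/N, which ran from 674 to 4435, and those of N/TT/N overlapped them. Over all 40 spots of the N/N/N sequence under its 4 names, the range was 410 to 6431, and the lowest spots of all 3 TT probes fell within it. In log2 the gains were 2.26, 1.89 and 1.97 in the order of the positions, and 1.23, 1.64 and 1.12 after spatial adjustment. With the same antibody, single TC probes had 4390, 3927.5 and 5143.5, single CT probes 4823, 3120.5 and 3542.5, and single CC probes 3699, 2192 and 2575.5, at positions 6, 12 and 18. The spots of all these 9 probes overlapped those of N/N/N. After adjustment the single CC gains were -0.17, -0.34 and -0.32, where the unadjusted gains were 0.81, 0.06 and 0.29, so no direction was settled for single CC with anti-CPD.

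With anti-6-4PP the brightest single probes carried TC at an outer position. TC/N/N had 23054 ± 4725, with spots from 11919 to 30555, and N/N/TC had 17344 ± 2776, with spots from 10742 to 19678. N/TC/N had only 8226.5 ± 5393, with spots from 3381 to 20638. The first 2 did not overlap the spots of N/N/N, which ran from 3216 to 7033, whereas N/TC/N did. The 40 spots of that sequence under its 4 names ran from 2175 to 11234, which TC/N/N cleared and the lowest spots of N/N/TC did not. These are gains of 2.08, 1.67 and 0.59 on the log2 scale at positions 6, 18 and 12. Single TT gave 15350.5, 8754.5 and 12108 at positions 6, 12 and 18, and the spots at 6 and 18 were again above those of N/N/N, while only those at 6 were above all 40 spots of its sequence. Single CC gave 9099.5, 5615.5 and 8239, and single CT gave 7906.5, 5700.5 and 6061.5. The spots of these CC and CT probes overlapped those of N/N/N. At position 12, N/CC/N and N/CT/N were within 0.06 of N/N/N on the log2 scale, less than the SD of the spots.

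The complete design allows each dipyrimidine to be set against N in 25 pairs of probes that match at the other 2 positions. The 25 pairs share probes and sit on 1 array, so they describe how steady an effect was over backgrounds that also differ in length. On the CPD UV array TT raised log2 intensity by 1.23 ± 0.53 at position 6, by 0.76 ± 0.45 at position 12 and by 1.05 ± 0.50 at position 18 (SD over 25 pairs). It was higher in 25, 24 and 25 of the pairs. TC gave 0.38, 0.20 and 0.35, and CT gave 0.50, 0.15 and 0.25, with 17 to 20 of 25 pairs higher. CC gave 0.04, -0.06 and -0.06, with 11, 12 and 13 pairs higher. CC in place of N thus showed no direction over all pairs, but these means pool opposite signs. With 1 other position filled, CC gave -0.34, -0.38 and -0.41 at positions 6, 12 and 18. It gave 0.18, 0.10 and 0.10 with 2 others filled, and 0.81, 0.06 and 0.29 with 0. TC and CT at position 12 gave -0.13 and -0.31 with 1 other filled, and 0.31 and 0.36 with 2. The change in length also differs between these groups of pairs, and its part was not tested. Averaged over positions, TT came to 1.01, or 2.02 times, TC to 0.31, CT to 0.30 and CC to -0.02.

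On the 6-4PP UV array TC raised log2 intensity by 1.82 ± 0.22 at position 6 and by 1.54 ± 0.21 at position 18, in 25 of 25 pairs at both (SD over 25 pairs). These are factors of 3.52 and 2.91. At position 12 the same dipyrimidine gave 0.58 ± 0.21, or 1.49 times, in 24 of 25 pairs. TT gave 1.26 ± 0.22, 0.37 ± 0.17 and 0.81 ± 0.22 at positions 6, 12 and 18. CC followed with 0.58, 0.17 and 0.44, and CT was lowest with 0.28, 0.02 and 0.17. Every type was strongest at position 6 and weakest at position 12. CT at position 12 was higher than N in 15 of 25 pairs. Averaged over positions, TC came to 1.31, TT to 0.81, CC to 0.40 and CT to 0.16. As a log2 ratio of UV over non-UV, CT averaged over positions came to 0.04. Without UV, CT gave 0.23, 0.04 and 0.07 at positions 6, 12 and 18. The ratio sets intensities of very different size against each other. CT/N/N read 41 without UV and 7906.5 after it, where N/N/N read 38.5 and 5466.5. The part of the non-UV signal in the CT effect was not tested.

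Setting the types against each other at equal length gave the clearest ordering, since nothing but the 2 bases differs. With anti-CPD, TT exceeded TC by 0.85 ± 0.30 at position 6, by 0.57 ± 0.40 at position 12 and by 0.70 ± 0.30 at position 18, in 25, 24 and 25 of 25 pairs. TT exceeded CC by 1.19, 0.82 and 1.10 in all 25 pairs at each position. With anti-6-4PP the order of TT and TC was the opposite. TT minus TC was -0.56 ± 0.20 at position 6 and -0.73 ± 0.18 at position 18, with TT lower in 25 of 25 pairs at both. At position 12 it was -0.20 ± 0.14, with TT lower in 22 pairs and higher in 2.

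The order of the types with C also changed with the antibody. CT minus CC was 0.46 at position 6, 0.21 at 12 and 0.31 at 18 on the CPD UV array, where CT was higher in 23, 19 and 23 of 25 pairs. On the 6-4PP UV array the same difference was -0.29, -0.15 and -0.27, and CT was lower in 25, 22 and 25 pairs. TC and CT contain the same bases in opposite order. With anti-6-4PP, TC exceeded CT by 1.53 at position 6, 0.56 at position 12 and 1.37 at position 18, in 25 of 25 pairs each. With anti-CPD the difference was -0.12 ± 0.21 at position 6, 0.05 ± 0.29 at 12 and 0.10 ± 0.32 at 18, all smaller than their SD over pairs. TC was lower than CT in 19 of 25 pairs at position 6. After spatial adjustment the difference there was -0.24 ± 0.22, with TC higher in 3 of 25 pairs.

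Moving a dipyrimidine from one position to another, with N left behind, compares probes of equal length with the same dipyrimidines. The single base left behind is C at position 6 and T at positions 12 and 18, and the neighbouring bases differ. TC at position 6 was brighter than TC at position 12 by 1.36 ± 0.13 with anti-6-4PP, or 2.57 times, in 5 of 5 such pairs (SD over 5 pairs). TC at 12 was lower than TC at 18 in all 5 pairs, with a mean difference of -0.96 ± 0.18. TC at 6 exceeded TC at 18 by 0.25 ± 0.14, in 5 of 5 pairs. The first 2 of these means include TC/N/TC at the ceiling, so that their true size is at least as large. For TT the corresponding differences were 0.76, -0.36 and 0.41, and for CC 0.40, -0.35 and 0.17. With anti-CPD, TT at 6 exceeded TT at 12 by 0.28 ± 0.28, and TT at 12 minus TT at 18 was -0.17 ± 0.11, in the same direction in 5 of 5 pairs each. After spatial adjustment, however, N/TT/N at 10160.4 was above TT/N/N at 7681.1 and N/N/TT at 7098.8. TT/N/TT at 11903.7 stayed above N/TT/TT at 8807.4 and TT/TT/N at 11085. The order of the positions for TT was thus not settled with this antibody. CT at 6 exceeded CT at 12 by 0.47 ± 0.30 with anti-CPD and by 0.26 ± 0.20 with anti-6-4PP. The position effect averaged over types was 0.54, 0.26 and 0.40 at positions 6, 12 and 18 with anti-CPD. After spatial adjustment position 12 had 0.40 and passed position 18, so the order of these 2 positions was not settled for CPD. The 6-4PP position effects were 0.98, 0.29 and 0.74.

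Probes with the same dipyrimidines in different arrangements were also compared, as the ratio of the brightest to the dimmest. Such a ratio is above 1 even without an effect of arrangement, since it includes spot error. For scale, the N/N/N sequence under its 4 names had UV medians from 2103 to 3713 with anti-CPD. With anti-6-4PP they ran from 4958 to 7698. An effect of arrangement beyond this spread was not tested. There are 30 contents that can be arranged in more than 1 way. With anti-6-4PP the brightest arrangement had a median of 1.61 times the dimmest, with a range from 1.16 to 2.82. With anti-CPD the median was 1.35, with a range from 1.12 to 1.92. One CC and one TC gave a 6-4PP ratio of 2.82, with 29921 for TC/N/CC and 10605.5 for N/TC/CC. A single TC gave 2.80 times, and 2 TC gave at least 2.47 times, with TC/N/TC at the ceiling of 65535 and N/TC/TC at 26491.5. Because of the ceiling, the highest ratio and the top of the range are not known.

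The median intensity of probes grouped by their number of dipyrimidines rose with that number, while length and filler changed with it. After UV, anti-6-4PP gave a median of 8496.75 over the 12 probes with 1, 13733 over the 48 probes with 2 and 23583.25 over the 64 probes with 3. The ranges were wide and overlapped, from 5615.5 to 23053.5 with 1, from 5544.5 to 65535 with 2 and from 8398.5 to 65535 with 3. On the CPD UV array the medians were 4158.75, 4786.5 and 7442.25. In matched pairs on that array, however, adding a dipyrimidine to a probe with 1 lowered the signal in 51 of 96 pairs. After spatial adjustment the signal was higher in 58 of 96. On the 6-4PP UV array it was lowered in 13 of 96. Probes with a single type at all 3 positions lay far apart. TT/TT/TT had 18211 ± 3433 with anti-CPD and 30372 ± 4090 with anti-6-4PP. TC/TC/TC had 5033.5 ± 1963 with anti-CPD and was at the ceiling with anti-6-4PP, where 7 of 10 spots read 65535. CT/CT/CT had 5811.5 and 9082.5 with the CPD and 6-4PP antibodies, and CC/CC/CC had 2191.5 and 13401.5. With anti-CPD the spots of CC/CC/CC, from 1149 to 4128, lay within the range of those of N/N/N. With anti-6-4PP its spots, from 11846 to 15422, lay wholly above those of N/N/N.

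The brightest probes differed between the antibodies. With anti-CPD the brightest by unadjusted intensity was TT/TT/TT, followed by TT/CT/TT at 13540 and by TT/TC/TT at 13446. After spatial adjustment the brightest were TT/TT/CC at 17152.1, TT/TT/TT at 17105.1 and CT/TT/TT at 16606.2, so this order was not settled. The counts and ranks below use unadjusted intensity. With anti-6-4PP, 4 probes had medians at the ceiling and have no order among them. They carry TC at both outer positions and TT, TC, CC or N at position 12. The probe with CT there, TC/CT/TC, followed at 65315. Of the 10 brightest 6-4PP probes, 7 had TC at position 6 and 8 had TC at position 18. Of the 10 brightest CPD probes, 8 had TT at position 6, 5 at position 12 and 7 at position 18. The dimmest were CC/CC/N at 1747, CC/N/CC at 1948 and N/N/N with anti-CPD, and N/N/N, N/CT/CT at 5544.5 and N/CC/N at 5615.5 with anti-6-4PP. After spatial adjustment N/CC/CC took the place of N/N/N among these with anti-CPD, and N/CT/N that of N/CC/N with anti-6-4PP.

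Across the 125 probes, intensities on the 2 UV arrays correlated with a Spearman rho of 0.43, as a description over probes that share a backbone. Some ranks lay far apart. TC/CC/TC ranked 89 with anti-CPD, at 4222, and shared the highest rank with anti-6-4PP. TC/TC/CC ranked 100 and 11, with 3755.5 and 43894, and CC/TC/TC ranked 105 and 12, with 3538 and 42369.5. In the other direction, N/TT/CT ranked 32 with anti-CPD and 103 with anti-6-4PP, at 8577.5 and 9268.5. CT/CT/TT ranked 12 and 79, and CT/TT/TT ranked 10 and 77. The former probes carry TC at 2 positions beside CC, and the latter combine TT with CT.

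Effects of the 3 positions nearly added up on the log2 scale of the 6-4PP UV array. There, the 3 positions taken separately accounted for 98.1% of the variance between the 125 probes, with 54.7% for position 6, 6.05% for position 12 and 37.4% for position 18. No pair of positions added more than 0.482%. On the CPD UV array the separate positions accounted for 86.3%, with 38.8%, 16.8% and 30.8% in the same order, and the remainder includes the larger spot error. The gain of a probe with 2 or 3 dipyrimidines was also compared with the sum of the gains of the matching single probes. With anti-6-4PP it fell below the sum in 106 of 112 probes, by a mean of -0.31 ± 0.24 on the log2 scale (SD over 112 probes). The lowest was CT/TT/TT, with a gain of 1.40 against a sum of 2.36, followed by TT/TT/TT at 2.47 against 3.32 and TC/TT/TC at the ceiling. The highest was N/CC/TC, with 1.88 against 1.70, and N/CC/CT and CC/CC/CT lay 0.15 and 0.12 above their sums. The outer positions 6 and 18 together fell short by 0.36, and positions 12 and 18 by 0.15. The mean shortfall was smaller than its SD of 0.34 over the sets of spots, and it was -0.14 with N/N/N taken from all 40 spots of its sequence.

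With anti-CPD all 112 such probes fell below the sum, by a mean of -1.31. The lowest were TT/TT/TT at -3.01, TT/TT/TC at -2.88 and TC/TT/TC at -2.76, and the highest were N/CC/TC at -0.12, N/CC/CC at -0.17 and CT/CC/N at -0.29. The low N/N/N value enters each of these sums more than once. With N/N/N taken from all 40 spots of its sequence the mean was -0.45. After spatial adjustment it was -0.17 and 45 of the 112 probes lay above the sum. A first dipyrimidine added 1.09 on average before adjustment and 0.43 after, the next 0.12 and 0.24, and the last 0.50 and 0.48. With anti-6-4PP these values were 0.81, 0.56 and 0.71 before adjustment and 0.88, 0.59 and 0.70 after. Adding to a probe with 1 dipyrimidine changed the length from 59 to 60 bases. The other additions changed it from 60 to 59 and also removed filler bases. Number, length and filler therefore cannot be told apart in these gains.

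Without UV, the dipyrimidine at position 6 went with the largest differences. TT in place of N at that position raised log2 intensity by 0.40 ± 0.13 with anti-CPD and by 0.41 ± 0.09 with anti-6-4PP, in 25 of 25 pairs on both. TT/N/N read 34 and 50 on these arrays, where N/N/N read 28 and 38.5. The 8 members that read above 40 with anti-CPD or above 50 with anti-6-4PP included TT/TT/CT at 42.5 and 52 and TT/TT/TC at 42 and 50, and all 8 carried TT at position 6. With anti-6-4PP, TC and CT at position 6 gave 0.23 each without UV, in 25 of 25 pairs, and CC gave 0.05. At positions 12 and 18 the TT effect without UV was -0.02 and 0.05 with anti-6-4PP, and 0.12 and 0.16 with anti-CPD. Position 6 accounted for 79.2% of the variance between members without UV for anti-6-4PP and for 63.6% for anti-CPD. Expressed as the log2 ratio of UV over non-UV, the TT effect averaged over positions was 0.78 for CPD and 0.66 for 6-4PP, and the position 6 effect was 0.36 and 0.76.

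The same 3-position design was printed on the opposite strand of the p53 backbone and on both strands of MITF and TBP backbones, which gives 18 positions with known neighbouring bases. The effect of TC with anti-6-4PP after UV differed with those bases. Position 6 of the p53 listed strand, with A on both sides, had 1.82, and the 3 other positions with A on both sides had 1.91 to 1.98. Position 18, with A before and G after, had 1.54, against 1.13 to 1.73 at 5 others. Position 12, with G before and A after, had 0.58, against 0.44 to 0.80 at 7 others. The 3 measured ranges did not overlap. The highest value with A before and G after, 1.73 ± 0.44 (SD over 25 pairs), came from the listed strand of TBP, where 11 of 125 medians were at the ceiling, and lay close to the 1.82 of position 6. Another 4 medians were at the ceiling on the opposite strand of TBP, so the order of these 2 groups is uncertain at their edges. TT showed the same order with 1.26, 0.81 and 0.37 on the p53 listed strand. For TT the other backbones had 1.06 to 1.36, 0.49 to 1.06 and 0.23 to 0.54, so that its ranges touched or overlapped. CC had 0.58, 0.44 and 0.17 on the p53 listed strand, and 0.60 to 0.68, 0.36 to 0.57 and 0.14 to 0.30 elsewhere. With anti-CPD the ranges of the TT effect overlapped. They were 0.92 to 1.58 with A on both sides, 0.68 to 1.71 with A before and G after, and 0.47 to 1.13 with G before and A after. No test was made of these differences, since all positions lie on the same array.

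On the p53 backbone the opposite-strand probes mirror those described here, with A before and G after at the first place, G before and A after in the middle, and A on both sides at the last. Reading the opposite-strand design in reverse order, the 125 pairs of probes had, as a description, a Pearson r of 0.96 for 6-4PP UV and 0.84 for CPD UV. In the same order as listed, the values were 0.91 and 0.79. The 6-4PP position effects of the opposite strand were 0.51, 0.23 and 1.01, where the listed strand had 0.98, 0.29 and 0.74. Of the 125 listed-strand probes, 101 were brighter than their mirrored partner with anti-6-4PP and 87 with anti-CPD, with median log2 differences of 0.25 and 0.26. The non-UV arrays also differed in that direction, for 104 probes with anti-6-4PP and 96 with anti-CPD, with medians of 0.18 and 0.15. The TT effect averaged over positions was 1.01 on the listed and 0.69 on the opposite strand with anti-CPD, and 0.81 and 0.61 with anti-6-4PP. On the non-UV arrays the mirrored TT effect at the last place of the opposite strand was 0.13 with anti-CPD and 0.05 with anti-6-4PP, below the values of 0.40 and 0.41 at position 6 of the listed strand. A TT effect of that size without UV was not particular to this set with anti-CPD. The listed strand of TBP had 0.41 in the middle and 0.57 at its last place. With anti-6-4PP these places had 0.11 and 0.18.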

How the data were processed

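The authors deposited 1 table of spots per array, 4 in all, holding linear fluorescence intensity (Alexa 488), per the file headers. One deposited intensity column is blank at flagged spots, and another is spatially adjusted. The adjusted intensity equalled the unflagged intensity times the array median over the local median, as checked at every unflagged library spot. The Cy3 column held 1 at every spot, so the amount of DNA was not corrected for. The sources used here give neither scanner nor software.

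The value of a probe is the median of its unflagged, unadjusted spots, 7 to 10 per array. Probes are compared on the log2 scale in matched pairs, calculated with Python 3.11.15, NumPy 2.4.6 and pandas 2.3.3. Dipyrimidines of all array sequences were counted on both strands without the last 10 bases. On simulated spots of 125 probes with added effects, the largest error was 0.04 for CPD UV and 0.05 for 6-4PP UV (log2). The simulation held only additive effects and independent spot error, with no ceiling, spatial trend or change in length. It therefore checks the calculation and does not give the accuracy of the measured effects.

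Named probes are N/N/N, the 12 single and 4 uniform probes, the 3 brightest and 3 dimmest per UV array, the 3 farthest from additivity per direction and UV array, and the 3 with the largest rank difference per direction. Ties at the ceiling, the probe after them, and the brightest non-UV probes were named after their values were seen, as were the arrangements whose ratios are given. The probes and comparisons were chosen with earlier results of these data known. Alternatives tried were spot means, inclusion of flagged spots, the adjusted intensity, each spot left out, the array titles, the UV over non-UV ratio, probes at the ceiling left out, single probes alone, linear intensity and other call thresholds.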

Additional observations from a re-analysis of the deposited data

Results flagged for a closer look

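The difference between TT and TC ran in opposite directions with the 2 antibodies in every one of the 25 matched pairs at both outer positions. At position 6, TT minus TC was 0.85 (log2) with anti-CPD and -0.56 with anti-6-4PP after UV. At position 18 it was 0.70 and -0.73. The difference between the antibodies was not tested, since each was used on 1 irradiated array. The antibodies were also used at different dilutions, 1 in 400 and 1 in 80, whose part in the result was not tested.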

How the results depend on the processing

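With any of the 10 spots left out, or flagged spots kept, 20 effects kept their direction and stayed within the SD of the replicate spot sets. Of these, 18 were also computed without probes at the ceiling, with the same outcome. That SD comes from values with 1 spot per probe and is not the error of a median of 10 spots. Leaving out 1 of 10 spots could hardly move a value beyond it, so staying within it is a weak check. With a spot left out, 72 to 81 probes were called for CPD and 97 to 100 for 6-4PP. Of 2 alternatives chosen after seeing the data, removing pairs with N/N/N changed no effect beyond that SD. Using all 40 spots of its sequence moved the CPD departure from additivity from -1.31 to -0.45 and the CPD rise to 3 dipyrimidines from 1.82 to 1.28, within wide SDs of 1.16 and 0.80, and the 6-4PP values from -0.31 to -0.14 and from 2.11 to 2.01, with SDs of 0.34. With single probes alone, the CPD effects of TT, TC, CT and CC were 2.04, 1.08, 0.84 and 0.39, with 1.33, 0.85 and 1.08 at positions 6, 12 and 18. The 6-4PP effects were then 1.11, 1.44, 0.25 and 0.46 for TT, TC, CT and CC, and 1.21 and 0.89 at positions 6 and 18. By the UV over non-UV ratio, TT was 0.78 and CT 0.21 for CPD, with 0.36 at position 6, and TT was 0.66, TC 1.23 and CT 0.04 for 6-4PP, with 0.76 at position 6. The mean of spots gave 1.26 for TC with 6-4PP, and spatial adjustment gave 0.40 for position 12 with CPD. On linear intensity the mean departure from the sum was -2860.8 units for CPD and 3850.7 units for 6-4PP, so its 6-4PP direction depends on the scale. Read by title, the 6-4PP UV minus non-UV difference was -8.66, TT, TC and CC effects were 0.15, 0.08 and 0.02, positions 6, 12 and 18 had 0.23, -0.0022 and 0.05, the rise was 0.17, the departure from additivity 0.16 and 0 probes were called. No paired analysis was possible because each group held 1 array. Small CPD differences are limited by the spot spread, and the brightest 6-4PP values by the ceiling.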
